A study of Mus musculus with 16 samples.

Results

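Gli1, Ptch1 and Hhip are the genes by which Hedgehog signalling is most often read, and their levels were described over mouse embryos that lacked Fuz, Gpr161 or both. The 3 genes were taken by their Ensembl identifiers from the 54838 identifiers of each count table: Gli1 (ENSMUSG00000025407, chromosome 10), Ptch1 (ENSMUSG00000021466, chromosome 13) and Hhip (ENSMUSG00000064325, chromosome 8). All 3 passed the filter on low counts, as did 21284 genes in all. The libraries came from E10.5 embryos, cut into a Head (the region rostral to the third branchial arches) and a Tail (the region caudal to the forelimbs). In each region there were 4 genotypes with 2 libraries each: Fuz;Gpr161 double knockout (DKO), Fuz KO, Gpr161 KO and wild type (WT). The labels name neither the alleles nor the strain, give no treatment, and do not state if libraries of a group were separate embryos or pools. Each p-value thus covers the spread between these samples alone. That spread may be technical, though the Gpr161 KO libraries of each region differed in sex (below).

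Hedgehog ligands bind the receptor Patched, which releases Smoothened and turns the Gli transcription factors from repressors into activators. In vertebrates this takes place at the primary cilium. Gli1 is itself a Gli factor that is induced by the pathway and adds to its output. Ptch1 encodes the receptor and Hhip encodes a protein that binds the ligand at the cell surface, so both are induced by the signal that they then dampen. Gpr161 is a ciliary G protein-coupled receptor that keeps Gli repressor production high, and Fuz is a subunit of the CPLANE complex, which is needed for intraflagellar transport.

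The promoters of Ptch1 and Hhip, the members with an entry in the RefSeq promoter table, are shown to let their sequences be compared. The lines give the 250 bases upstream of the annotated start from that table (GRCm38.p6), 5′ to 3′ on the gene's strand, with CG dinucleotides in capitals. The Ptch1 window is chr13:63565736-63565985 and the Hhip window chr8:80058009-80058258, both on the minus strand. The Gli1 promoter is named only.
Ptch1: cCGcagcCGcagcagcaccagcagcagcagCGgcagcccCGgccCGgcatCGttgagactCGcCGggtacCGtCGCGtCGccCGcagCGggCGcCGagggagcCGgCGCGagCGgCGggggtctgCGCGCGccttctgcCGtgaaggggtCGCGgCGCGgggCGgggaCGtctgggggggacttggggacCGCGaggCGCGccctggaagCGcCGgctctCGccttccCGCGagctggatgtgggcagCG
Hhip: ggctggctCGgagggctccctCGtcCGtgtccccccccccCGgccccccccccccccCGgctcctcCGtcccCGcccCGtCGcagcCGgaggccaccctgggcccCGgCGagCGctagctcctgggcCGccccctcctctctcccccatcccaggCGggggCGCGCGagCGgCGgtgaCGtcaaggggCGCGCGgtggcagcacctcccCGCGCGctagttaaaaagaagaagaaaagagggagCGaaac
The Ptch1 window held 41 CG dinucleotides at 78.4% GC, which put its CG count at percentile 98.91 of the 32851 windows of that length in the table. The Hhip window held 28 at 76% GC, at percentile 92.39, against a median of 6 and a median of 52.4% GC over the table. The Gli consensus GACCACCCA was searched on both strands, and neither window held it, either exactly or with 1 mismatch. It occurs exactly in 0.2253% of all windows and with up to 1 mismatch in 5.793%, so its absence from these windows describes these letters alone.

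The 16 libraries held 39062489 to 53680317 counts each, and raw counts ran from 502 to 5040 for Gli1, 4100 to 22980 for Ptch1 and 118 to 2882 for Hhip. Values are given in CPM, read counts scaled to a common library total with TMM factors. Gpr161 lay at 2.12 to 5.44 CPM in the libraries labelled DKO or Gpr161 KO, against 46.8 to 55.0 CPM in WT, and Fuz at 0.808 to 1.89 CPM in those labelled DKO or Fuz KO, against 5.17 to 7.84 CPM in WT. In Fuz KO 1 and 2, Gpr161 was at 25.4 and 52.5 CPM in the Head and 24.3 and 42.7 CPM in the Tail. Each lay below both WT libraries of its region, library 1 by the most (log2 -0.48 and -0.55 by region, edgeR adjusted p = 0.647 and 0.816). The part of this in the Fuz KO comparisons was not tested. Summed over 8 genes of the caudal body axis, the Head libraries held at most 1.67 CPM and the Tail libraries 259.65 to 469.32 CPM. By Xist and Y-linked transcripts, all DKO and Fuz KO libraries were male, the Gpr161 KO libraries of each region were male for number 1 and female for number 2, and all WT libraries were female, so that loss of Fuz and male sex cannot be told apart against WT. A list of 25 hypoxia and glycolysis genes differed between the libraries of a genotype. Its median log2 difference from WT was 2.35 in Head DKO 1 and 0.62 in Head DKO 2, while the Head Fuz KO libraries had 2.61 in number 1 and 0.16 in number 2. The Tail libraries had 1.74 and 0.35 in DKO and 2.31 and 0.12 in Fuz KO, in the same order. Gpr161 KO 1 and 2 had 1.39 and 0.63 in the Head and 1.08 and 0.38 in the Tail.

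Ptch1 was the most abundant of the 3 per length and Hhip the least. In WT, mean CPM per kilobase of merged exons was 10.48 in the Head and 10.25 in the Tail for Ptch1, 8.02 and 8.42 for Gli1, and 1.21 and 1.65 for Hhip. The highest level of each gene was in Tail Gpr161 KO and the lowest in Head Fuz KO. The range between these groups was widest for Hhip, at 15.5-fold, followed by Gli1 at 9.2-fold and Ptch1 at 4.63-fold. For Ptch1, the 6 groups other than Gpr161 KO overlapped each with its neighbour in order (Tail DKO, Head DKO, Head WT, Tail WT, Tail Fuz KO and Head Fuz KO, high to low). Gli1 and Hhip were spread more widely. From high to low, Gli1 ran through Tail Gpr161 KO, Head Gpr161 KO, Tail WT, Head WT, Tail DKO, Tail Fuz KO, Head DKO and Head Fuz KO. Tail WT overlapped Head WT, Head WT overlapped Tail DKO and Tail Fuz KO overlapped Head DKO, whereas the other neighbours did not overlap. Hhip ran through Tail Gpr161 KO, Head Gpr161 KO, Tail DKO, Tail WT, Head WT, Tail Fuz KO, Head DKO and Head Fuz KO. Its neighbours overlapped for Tail Gpr161 KO with Head Gpr161 KO and for Tail Fuz KO with Head DKO.

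**Figure D1:**
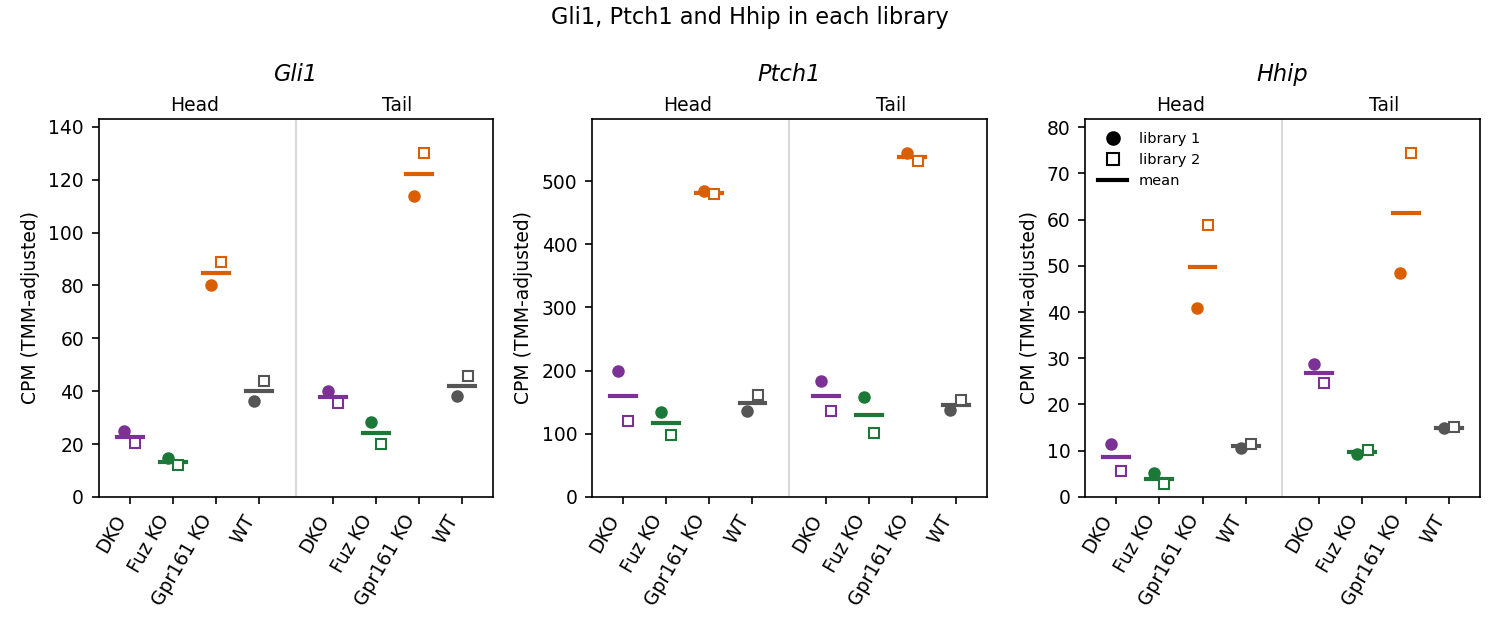
Levels of Gli1, Ptch1 and Hhip in CPM (linear axes, each from 0) in each of the 16 libraries, by region and genotype. Filled circles are library 1, open squares library 2 and bars the mean of the 2. The Gpr161 KO libraries lie above those of every other group for all 3 genes, and Head Fuz KO has the lowest mean.

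Loss of Gpr161 alone raised all 3 genes in both regions. Here and below, a gene is said to have risen or fallen where the adjusted p of edgeR's quasi-likelihood test (Benjamini-Hochberg over all genes of the comparison) was under 0.05, and changes are log2 fold changes with their standard error (SE). Gli1 had 80.3 and 88.9 CPM in Head Gpr161 KO, against 36.4 and 43.7 CPM in Head WT. It rose 2.11-fold (log2 1.079, SE 0.18, adjusted p = 0.00909). Tail levels were 114 and 130 CPM in Gpr161 KO, against 38.2 and 45.9 CPM in WT. The Gpr161 KO libraries lay above the WT libraries with no overlap in either region, and the rise in the Tail was 2.90-fold (log2 1.54, SE 0.19, adjusted p = 0.00325).

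Ptch1, the receptor and negative feedback gene, stood at 484 and 479 CPM in Head Gpr161 KO, against 136 and 162 CPM in Head WT. Its libraries in the mutant differed by little. The Tail libraries had 545 and 532 CPM in Gpr161 KO, against 138 and 153 CPM in WT. It rose 3.24-fold in the Head (log2 1.70, SE 0.26, adjusted p = 0.00634) and 3.70-fold in the Tail (log2 1.89, SE 0.26, adjusted p = 0.0129).

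Hhip, the ligand-binding inhibitor, was at 40.8 and 58.8 CPM in Head Gpr161 KO, against 10.6 and 11.4 CPM in Head WT. Its Tail levels were 48.3 and 74.4 CPM in Gpr161 KO, against 14.9 and 15.0 CPM in WT. Library 2 was the higher Gpr161 KO library in both regions, and no mutant library overlapped WT. It rose 4.52-fold in the Head (log2 2.18, SE 0.34, adjusted p = 0.00634) and 4.10-fold in the Tail (log2 2.04, SE 0.34, adjusted p = 0.0236). Thus 3 of 3 genes rose in each region, where 2.02% of all genes tested were called in the Head and 0.305% in the Tail. In RNA from whole body regions, more cells of a type and more RNA per cell cannot be told apart.

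Other genes differed between the same libraries. A list of 20 cardiomyocyte genes summed to 599 to 2816 CPM in Head Gpr161 KO, with none at 0, against 13.3 to 16.4 CPM in Head WT, with 3 of 20 at 0 in each library. In the Tail this list summed to 47.3 to 53.3 CPM in Gpr161 KO, against 96.6 to 207 CPM in WT. A list of 10 floor plate and notochord genes, cells that secrete the ligand Shh, summed to 1466 to 2004 CPM in Head Gpr161 KO and 376 to 447 CPM in Head WT. In the Tail it summed to 522 to 551 CPM in Gpr161 KO and 232 to 334 CPM in WT. The hypoxia and glycolysis genes summed to 13069 to 17994 CPM in Head Gpr161 KO and 9320 to 9512 CPM in Head WT, and to 13048 to 18322 CPM in Tail Gpr161 KO and 10439 to 11193 CPM in Tail WT. The part of these 3 lists in the rise of Gli1, Ptch1 and Hhip was not tested. In the Head, leaving out WT 1 or WT 2 ended all 3 calls (adjusted p 0.0733 to 0.169), leaving out Gpr161 KO 1 ended those of Gli1 (0.0509) and Ptch1 (0.052), and leaving out Gpr161 KO 2 ended that of Gli1 (0.0786). In the Tail, leaving out any of the 4 libraries ended the calls of Ptch1 and Hhip (0.0502 to 0.212), and leaving out Gpr161 KO 2 that of Gli1 (0.0511).

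Loss of Fuz alone lowered Gli1 in the Head, and Ptch1 and Hhip did not pass in either region. Gli1 was at 14.6 and 11.9 CPM in Head Fuz KO, against 36.4 and 43.7 CPM in Head WT. The log2 change was -1.59 (SE 0.19, adjusted p = 0.00862), which made it the gene with the third smallest p of the comparison. In the Tail, Gli1 was at 28.3 and 20.002 CPM in Fuz KO, below 38.2 and 45.9 CPM in WT, with a log2 difference of -0.80 (SE 0.18, adjusted p = 0.763). The Fuz KO libraries lay below the WT libraries in both regions. The percentage of all genes called was 0.047% in the Head and 0.0094% in the Tail. In the Head, the floor plate and notochord list summed to 208 to 263 CPM in Fuz KO and 376 to 447 CPM in WT, and 8 genes of embryonic blood, none at 0, summed to 4074 to 5094 CPM in Fuz KO and 7136 to 8946 CPM in WT. Together with the hypoxia genes given above, their part in the fall of Gli1 was not tested.

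Hhip was at 5.12 and 2.81 CPM in Head Fuz KO, against 10.6 and 11.4 CPM in Head WT. Both mutant libraries were below WT, and the log2 difference was -1.48 (SE 0.34, adjusted p = 0.6), while DESeq2 gave an adjusted p of 0.0075. Tail libraries had 9.18 and 10.2 CPM in Fuz KO, against 14.9 and 15.0 CPM in WT (log2 -0.62, SE 0.33, adjusted p = 0.816). Ptch1 was nearest to WT. It had 135 and 97.6 CPM in Head Fuz KO, against 136 and 162 CPM in Head WT (log2 -0.35, SE 0.26, adjusted p = 0.652). Tail Fuz KO had 157 and 101 CPM, on either side of 138 and 153 CPM in WT (log2 -0.17, SE 0.26, adjusted p = 0.879). The call of Gli1 in the Head ended without Head WT 2 (adjusted p = 0.0939), with the Head fitted alone (0.0532) and with sex as a term (0.428).

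**Figure D2:**
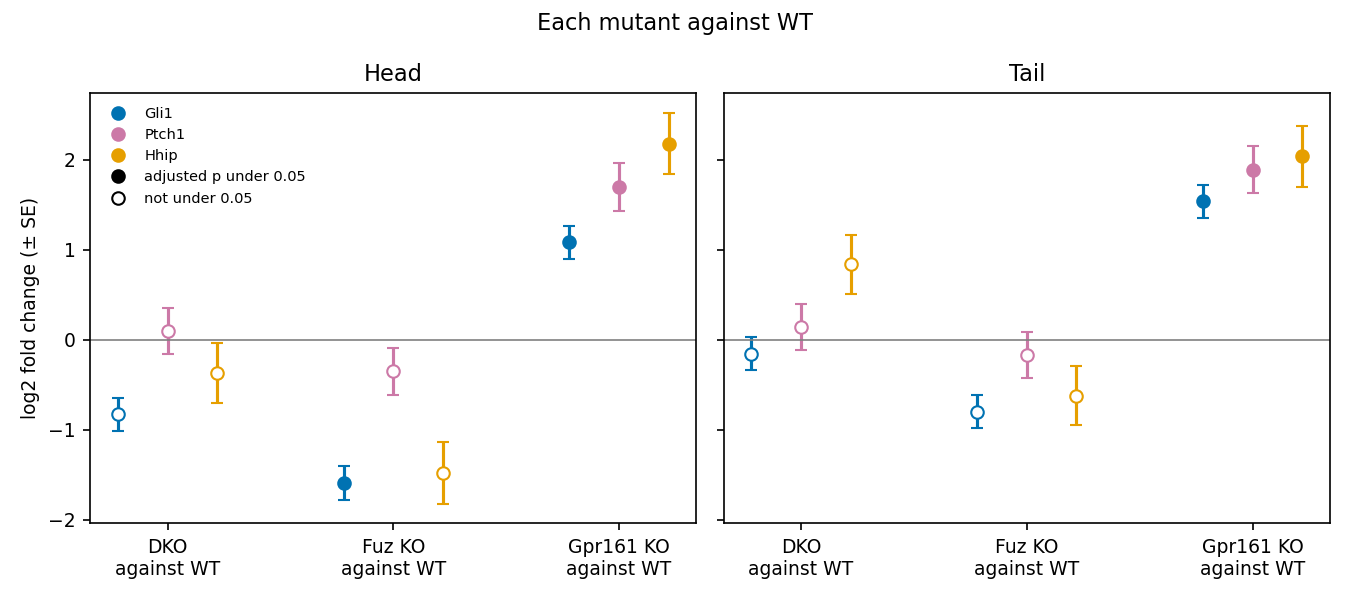
Log2 fold change of each mutant against WT of its region, with SE, for Gli1, Ptch1 and Hhip. Filled points have an adjusted p under 0.05, which holds for the 3 genes in Gpr161 KO of both regions and for Gli1 in Head Fuz KO (log2 -1.59), and open points do not.

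In the DKO, none of the 3 genes passed against WT in either region, and the genes differed in where they lay. Gli1 was at 24.9 and 20.3 CPM in Head DKO, below 36.4 and 43.7 CPM in Head WT (log2 -0.83, SE 0.18, adjusted p = 0.414). In the Tail it overlapped WT, with 40.0 and 35.4 CPM in DKO, against 38.2 and 45.9 CPM in WT (log2 -0.16, SE 0.18, adjusted p = 0.901). Ptch1 lay on either side of WT in both regions. It had 199 and 119 CPM in Head DKO, against 136 and 162 CPM in Head WT (log2 0.10, SE 0.26, adjusted p = 0.976). Tail DKO had 184 and 136 CPM, against 138 and 153 CPM in WT (log2 0.14, SE 0.26, adjusted p = 0.95).

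Hhip overlapped WT in the Head, with 11.4 and 5.68 CPM in DKO, against 10.6 and 11.4 CPM in WT (log2 -0.37, SE 0.33, adjusted p = 0.957). In the Tail both DKO libraries, at 28.7 and 24.7 CPM, were above both WT libraries, at 14.9 and 15.0 CPM (log2 0.84, SE 0.33, adjusted p = 0.621). Of all genes, 7 (0.0329%) were called in Head DKO and 9 (0.0423%) in Tail DKO. By edgeR, 922 genes in Head DKO and 1530 in Tail DKO had an unadjusted p under 0.05, among them Gli1 in the Head and Hhip in the Tail, and DESeq2 called Gli1 in the Head (adjusted p = 0.0196). Ptch1 and Gli1 were higher in library 1 than in library 2 in all 4 groups that lacked Fuz, the libraries in which the hypoxia and glycolysis genes were also higher. Hhip had the same order except in Tail Fuz KO. In the Gpr161 KO groups library 1 also had the higher hypoxia and glycolysis values. There, Gli1 and Hhip were lower in library 1 in both regions, and Ptch1 was slightly higher. The part of the hypoxia and glycolysis difference in the values of these genes was not tested. Without both Fuz KO 1 and both DKO 1 libraries, Ptch1 in DKO against WT was at log2 -0.34 in the Head and -0.11 in the Tail.

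Against Gpr161 KO, the DKO was lower for all 3 genes in the Head and for Gli1 and Ptch1 in the Tail. These comparisons use the DKO and Gpr161 KO libraries already given. Gli1 fell, with log2 changes of -1.91 in the Head (SE 0.19, adjusted p = 0.00014) and -1.69 in the Tail (SE 0.19, adjusted p = 0.00127). Ptch1 fell too, with -1.597 in the Head (SE 0.26, adjusted p = 0.00566) and -1.75 in the Tail (SE 0.26, adjusted p = 0.0146). Hhip fell by 2.54 in the Head (SE 0.35, adjusted p = 0.00168), while in the Tail it was at log2 -1.20 (SE 0.33, adjusted p = 0.135). Of all genes, 4.16% were called in the Head and 0.522% in the Tail. Ptch1's call ended in the Head without DKO 2 (adjusted p = 0.0512) and in the Tail without any of the 4 libraries (0.0643 to 0.221), and DESeq2 called Hhip in the Tail (0.0147).

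Against Fuz KO, the DKO had higher means for each gene in each region, and none of the 6 differences passed by edgeR, while 4 had an unadjusted p under 0.05, those of Gli1 and Hhip. For Gli1 the DKO libraries lay above the Fuz KO libraries in both regions (log2 0.77, SE 0.19 in the Head and 0.64, SE 0.18 in the Tail). Hhip showed the same order, with log2 1.11 (SE 0.34) in the Head and 1.46 (SE 0.34) in the Tail, whereas the groups overlapped for Ptch1 (log2 0.45, SE 0.26 and 0.31, SE 0.26). The adjusted p was 0.896 for Hhip in the Tail and 1 for the others, with 0.0282% of all genes called in the Head and 0.0329% in the Tail. An unadjusted p under 0.05 was found by edgeR for 616 of 21284 genes in the Head and 786 in the Tail. DESeq2 gave Hhip in the Tail an adjusted p of 0.0212. Fuz KO against Gpr161 KO set the extremes side by side, and all 3 genes fell in both regions, where 5.87% of all genes were called in the Head and 0.395% in the Tail. The log2 changes were -2.67 for Gli1, -2.05 for Ptch1 and -3.65 for Hhip in the Head, and -2.34 for Gli1, -2.06 for Ptch1 and -2.66 for Hhip in the Tail (adjusted p at most 0.0042).

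The effect of losing Gpr161 was set beside its effect in embryos that also lacked Fuz. For Ptch1, loss of Gpr161 had a log2 effect of 0.45 without Fuz and 1.70 with Fuz in the Head, and of 0.31 without Fuz and 1.89 with Fuz in the Tail. The DKO thus departed from the sum of the log2 effects of the single mutants by -1.24 (SE 0.36, adjusted p = 0.291) in the Head and by -1.58 (SE 0.36, adjusted p = 0.321) in the Tail. Neither departure passed the test, although both had an unadjusted p under 0.05 by edgeR. For Gli1 it was -0.31 (SE 0.26, adjusted p = 0.801) in the Head and -0.89 (SE 0.26, adjusted p = 0.523) in the Tail, and for Hhip -1.07 (SE 0.47, adjusted p = 0.6) in the Head and -0.58 (SE 0.46, adjusted p = 0.888) in the Tail. All 6 departures were negative, and they use the same WT libraries within a region. Gli1 in the Tail and Hhip in the Head also had an unadjusted p under 0.05 by edgeR. Of all 21284 genes, 1707 in the Head and 1329 in the Tail had an unadjusted p under 0.05. The share called was 0.164% in the Head and 0.0423% in the Tail. Without both Fuz KO 1 and both DKO 1 libraries the departure of Ptch1 was -1.40 in the Head and -1.48 in the Tail. That fit has 1 library in each Fuz KO and DKO group. Over all alternatives the departure of Ptch1 ran from -1.63 to -0.885 in the Head and from -1.87 to -1.23 in the Tail. Without a filter on low counts, that of Ptch1 passed in both regions (edgeR adjusted p = 1.3e-06 in the Head and 1.9e-11 in the Tail). That of Gli1 then passed in the Tail (edgeR adjusted p = 0.0243). In this fit 715 genes were called in the Head and 549 in the Tail. DESeq2 with all libraries gave Ptch1 an adjusted p of 0.01 in the Tail and called none of the 3 genes in the Head.

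**Figure D3:**
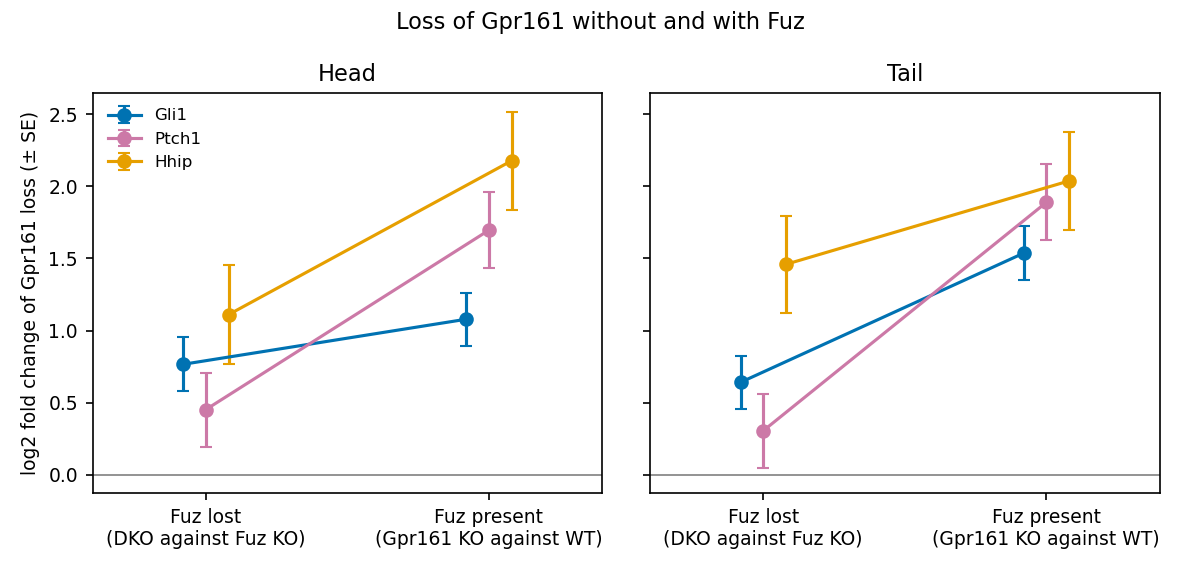
Log2 fold change on loss of Gpr161, with SE, in embryos without Fuz (DKO against Fuz KO, left) and with Fuz (Gpr161 KO against WT, right), by region. All 3 genes have the smaller value without Fuz in both regions, with the widest gap for Ptch1 (0.31 and 1.89 in the Tail). The gap passed the test for none of them in the edgeR fit shown, though some alternatives called it.

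Ratios of a pair of these genes within a library compare their responses without regard to scaling. The log2 ratio of Gli1 to Ptch1 was lower in each mutant library than in each WT library. It lay between -3.0 and -1.94 in the 4 DKO libraries, between -3.21 and -2.34 in the 4 Fuz KO libraries and between -2.59 and -2.03 in the 4 Gpr161 KO libraries, against -1.90 to -1.73 in the 4 WT libraries. The mean difference from WT, taken within region, was -0.58 for DKO, -0.92 for Fuz KO and -0.48 for Gpr161 KO. An exact two-sided permutation test within region gave p = 0.0556 for each of the 3, the smallest value that its 36 assignments allow, and 0.125 adjusted over 9 tests. The design therefore cannot reach 0.05. The test shuffled Head and Tail libraries separately. If Head and Tail of a number share an embryo, these libraries are not independent, and the permutation p-values here and below are too small. The ratio was lower where both genes rose (Gpr161 KO) and in the Head where Gli1 fell and Ptch1 did not pass (Fuz KO), and the 3 mutants share their WT libraries.

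The ratio of Gli1 to Hhip was also lower in Gpr161 KO, at 0.60 to 1.24 against 1.36 to 1.93 in WT (mean difference -0.76, exact permutation p = 0.0556, adjusted p = 0.125). In DKO it overlapped WT over the regions together, with a mean difference of -0.68 (exact permutation p = 0.111, adjusted p = 0.167). The Tail DKO libraries, at 0.48 and 0.52, lay below 1.36 and 1.61 in Tail WT. Head DKO had 1.12 and 1.83, against 1.77 and 1.93 in Head WT. In Fuz KO the mean difference was -0.13 (exact permutation p = 0.556, adjusted p = 0.625). The ratio of Ptch1 to Hhip differed by 0.79 in Fuz KO (exact permutation p = 0.111, adjusted p = 0.167) and by -0.28 in Gpr161 KO (exact permutation p = 0.333, adjusted p = 0.429). In DKO it was higher than WT by 0.51 in the Head and lower by 0.71 in the Tail, with a mean difference of -0.10 (exact permutation p = 0.722, adjusted p = 0.722).

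**Figure D4:**
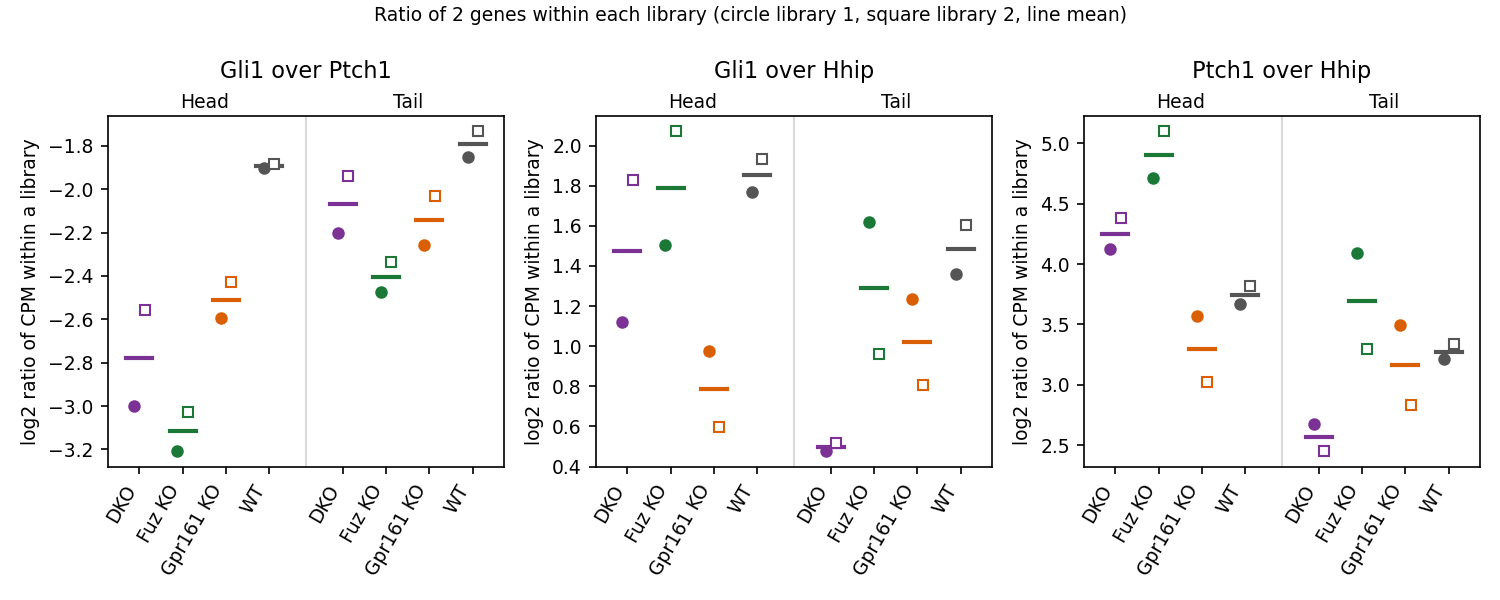
Log2 ratio of CPM of a pair of genes within each library, by region and genotype (circles library 1, squares library 2, bars the mean). Gli1 over Ptch1 is highest in the 4 WT libraries (-1.90 to -1.73), and Gli1 over Hhip is below WT in the 4 Gpr161 KO libraries and in Tail DKO. Ptch1 over Hhip lies above WT in Head DKO and below it in Tail DKO.

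Head and Tail were then compared within each genotype. In WT none of the 3 genes passed, with a Head minus Tail log2 difference of -0.07 for Gli1, 0.03 for Ptch1 and -0.44 for Hhip (adjusted p 0.684 to 0.991), where 3.77% of all genes were called. In the embryos that lacked Fuz, Gli1 and Hhip were lower in the Head. In DKO, Gli1 was lower by a log2 difference of -0.74 (SE 0.18, adjusted p = 0.0266) and Hhip of -1.64 (SE 0.34, adjusted p = 0.00975), with 7.04% of all genes called. In Fuz KO, the differences were -0.87 for Gli1 (SE 0.19, adjusted p = 0.0133) and -1.30 for Hhip (SE 0.34, adjusted p = 0.0429), with 6.3% called. Ptch1 did not pass, at -0.006 in DKO and -0.15 in Fuz KO (adjusted p = 0.996 and 0.842), and the sign in DKO turned to 0.00089 with the haemoglobin and mitochondrial genes left out.

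In Gpr161 KO, the Head minus Tail difference was -0.53 for Gli1 (SE 0.18, adjusted p = 0.111), -0.16 for Ptch1 (adjusted p = 0.814) and -0.30 for Hhip (adjusted p = 0.693), with 6.93% of all genes called. With Head and Tail libraries of a number treated as a pair, a replicate block within genotype, Gli1 was at -0.53 (SE 0.088, adjusted p = 0.00117), where 17.7% of all genes were called. Of the calls between Head and Tail, that of Gli1 in DKO ended without any of the 4 DKO libraries (adjusted p 0.0608 to 0.199) and that in Fuz KO without Tail Fuz KO 1 (0.141). That of Hhip in DKO ended without Head DKO 2 (0.0748) or Tail DKO 1 (0.0605), and that in Fuz KO ended in 9 of the 16 fits that left out a library (0.0559 to 0.157).

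The mutant effects themselves were compared between regions as Tail minus Head. The differences were 0.67 for Gli1, 0.04 for Ptch1 and 1.20 for Hhip in DKO, 0.79, 0.18 and 0.86 in Fuz KO, and 0.46, 0.19 and -0.14 in Gpr161 KO. Each had an adjusted p of 1 with edgeR, so a call in the Head and none in the Tail, as for Gli1 in Fuz KO, does not show that the regions differed. For the effect of DKO, 0% of all genes were called by edgeR, 692 genes, Gli1 and Hhip among them, had an unadjusted p under 0.05 and DESeq2 called 11. Without a filter on low counts, Hhip passed for DKO (edgeR adjusted p = 0.0293), where 144 genes were called. For the effect of Fuz KO, 0% were called by edgeR, 452 genes, Gli1 among them, had an unadjusted p under 0.05 and DESeq2 called 0. For the effect of Gpr161 KO the share was 0.094%.

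Other genes of the pathway were counted by role, over lists of 6 ligand and release genes, 4 other receptors and co-receptors, 14 genes behind the receptor and 20 further targets. Among the ligand genes, Shh fell in Head Fuz KO (4.72 ± 2.64 CPM against 29.3 ± 3.09 in WT, SD, n = 2; log2 -2.63, adjusted p = 0.0123) and rose in Head Gpr161 KO (129 ± 28.2 CPM; log2 2.14, adjusted p = 0.00555). None of the 6 passed by edgeR in DKO of either region or in the Tail, where DESeq2 called 1 in Head DKO, 1 in Tail DKO, 0 in Tail Fuz KO and 2 in Tail Gpr161 KO. Of the 4 receptors and co-receptors, 0 rose and 3 fell in Head Gpr161 KO and 0 rose and 2 fell in Tail Gpr161 KO, where 2.02% of all genes were called in the Head and 0.305% in the Tail. Those that fell are co-receptors, which present the ligand to Patched. Gas1 fell by 1.92 and Cdon by 0.96 in Head Gpr161 KO and by 1.23 and 1.34 in Tail Gpr161 KO, and Boc fell by 1.63 in the Head (adjusted p at most 0.0132). Behind the receptor, Gli3, which encodes the main Gli repressor, fell by 0.87 in Head Gpr161 KO (adjusted p = 0.0104), and the other members called were Gpr161 in all 4 groups that lacked it and Fuz in Head Fuz KO. Fuz itself did not pass in Head DKO (log2 -2.23, adjusted p = 0.0942), Tail DKO (-2.16, 0.13) or Tail Fuz KO (-2.30, 0.241). A gene without a call in these comparisons therefore need not be at its WT level.

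Of the 20 further targets, 4 rose and 0 fell in Head Gpr161 KO, with a list median of log2 1.38 against 0.0089 over all genes, and 2 rose and 0 fell in Tail Gpr161 KO, with a median of 1.04 against 0.00053. Foxa2, a floor plate transcription factor, and Foxf2, a forkhead factor of mesenchyme, rose in both regions (log2 3.48 and 2.03 in the Head, 2.92 and 2.01 in the Tail). Foxl1, of mesenchyme too, rose by 2.58 and Foxe1 by 2.34 in the Head. In Head Fuz KO, 0 rose and 2 fell, Foxl1 (log2 -3.32) and Foxf2 (log2 -2.31), and in Head DKO 0 rose and 1 fell, Foxl1 (log2 -3.34). In Tail DKO 0 passed by edgeR, 2 had an unadjusted p under 0.05 and DESeq2 called 1, and in Tail Fuz KO 0 passed by edgeR, 5 had an unadjusted p under 0.05 and DESeq2 called 3. The list medians were -0.50 in Head DKO, -0.59 in Head Fuz KO, -0.33 in Tail DKO and -0.62 in Tail Fuz KO. Of all genes, 2.02% were called in Head Gpr161 KO, 0.305% in Tail Gpr161 KO, 0.047% in Head Fuz KO and 0.0329% in Head DKO. The shares called were 0.0423% in Tail DKO and 0.0094% in Tail Fuz KO. An unadjusted p under 0.05 was found by edgeR for 1530 of 21284 genes in Tail DKO and 1109 in Tail Fuz KO. Over the alternatives tried, 1 to 12 of the list rose in Head Gpr161 KO and 1 to 10 in Tail Gpr161 KO.

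**Figure D5:**
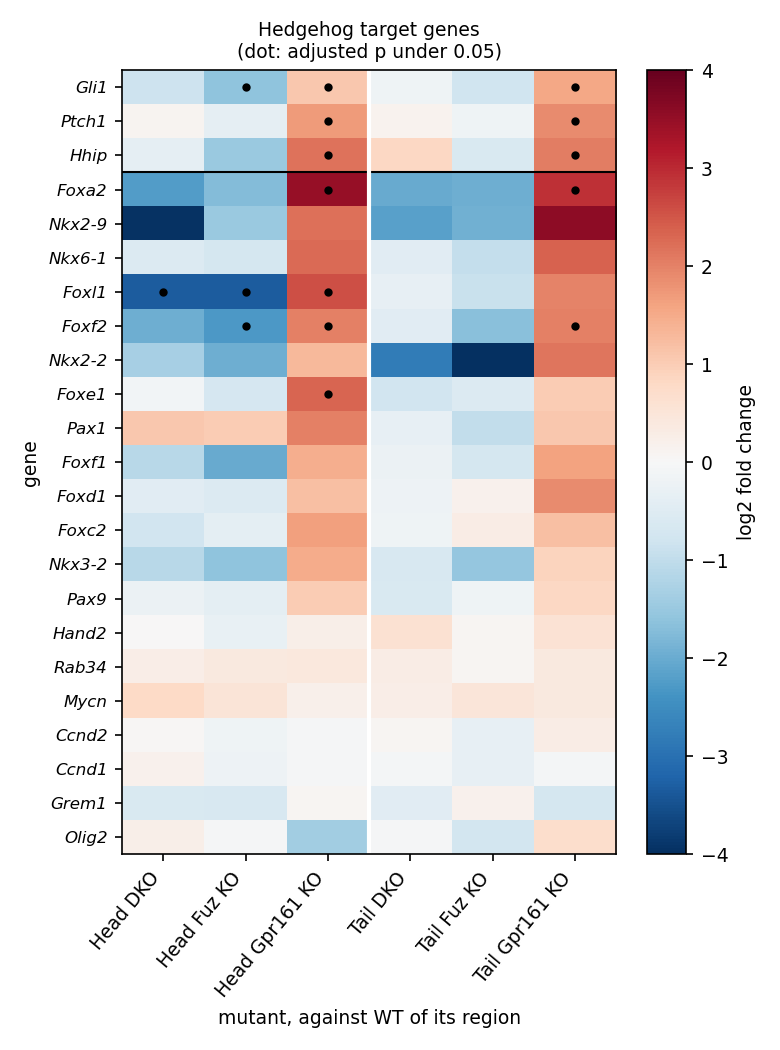
Log2 fold change of Gli1, Ptch1, Hhip (above the line) and the 20 further Hedgehog targets in each mutant against WT of its region, with red for higher and blue for lower and a dot at an adjusted p under 0.05. The colour scale ends at 4 in either direction, where Nkx2-2 in Tail Fuz KO (-4.59) is drawn, and most dots are in the Gpr161 KO columns.

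The pattern of each gene over the 16 libraries was compared with that of 12929 named protein-coding genes of at least 1 CPM on average, by Pearson's r of log2 CPM. These r values describe 16 libraries that share 8 groups and are given with no test. Among the genes most like Gli1 were Hhip (r = 0.941), the chemokine gene Cxcl12 (0.920) and Foxf2 (0.916). Hhip was most like Gli1 (0.941), followed by Gfpt1, an enzyme of hexosamine synthesis (0.928), Dact1 (0.912) and Fndc3b (0.906). Ptch1 was most like Aco1 (0.934), Slit3, which encodes a secreted guidance protein (0.932), Fkbp15 (0.930) and Elmo1 (0.928), and Gli1 stood at place 11 (0.895) and Hhip at place 33 (0.863) in its order. Over the 8 group means, Hhip stood at place 24 in the order of likeness to Gli1.

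Gli1 shares 62 bases of its exons (1.24%) with Arhgap9 on the other strand, which was at 5.56 CPM or less in each library, and 265 bases (5.31%) with the antisense gene model Gm47200, at 0.0476 CPM or less. Without the strand setting of the counting, which is not given in the sources used here, reads from such stretches cannot be told apart.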

How the data were processed

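Poly-A RNA was sequenced after Trizol-based extraction, per the labels' protocols. The authors deposited raw counts for each Ensembl gene in a table for each library. The submitters' processing notes name GRCm39, STAR 2.7.1a, featureCounts 1.6.0, StringTie 2.0.4, HTSeq and Picard 2.20.4 without their roles; which of them counted, and with what strand setting, is not given in the sources used here. Gene names and exon lengths came from GENCODE M21 (54723 identifiers matched, 115 not), whose build differs, so none of its coordinates are given. Totals ran from 39062489 to 53680317 counts (median 41951619.5), and the libraries of each group differed by more than sampling noise.

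Counts were fitted in edgeR 4.0.16 (R 4.3.3; filterByExpr, TMM scaling, robust quasi-likelihood F-test, a coefficient per group over all 16 libraries, 8 residual degrees of freedom, common biological coefficient of variation 0.257). P-values were adjusted by Benjamini-Hochberg over 21284 genes. The median log2 change of all genes lay between -0.031 and 0.033 in all 21 comparisons. Log2 CPM for ratios and likeness used a prior count of 2. The pipeline was tested on simulated data. Alternatives were RLE scaling, other filters, each region alone, a block on replicate number, leaving out haemoglobin and mitochondrial or cardiomyocyte genes before scaling, DESeq2 1.42.0, leaving out libraries and sex as a term.

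The members, the gene lists and the alternatives were chosen with earlier results of these data known. Named genes are Gli1, Ptch1, Hhip, Fuz and Gpr161, up to 3 called genes of each pathway list by adjusted p in each mutant against WT, and the 4 genes most like each member; Foxe1 was named after its values were seen. A gene that the rule names is not reported here, and the lists leave it out. Libraries of number 1 and number 2 deviated together between Head and Tail of a genotype (r 0.133 to 0.437 across genes, 4 of 4 above 0.1). They did so less regularly between genotypes (r -0.079 to 0.30). The numbers were therefore taken to pair Head with Tail within a genotype in an alternative fit, added after the data were seen. The comparisons as reported use no pairing, and the labels do not state a shared embryo.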

Additional observations from a re-analysis of the deposited data

How the results depend on the processing

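Of the values of Gli1, Ptch1 and Hhip in mutants against WT, 449 alternative values kept direction and side of the threshold, 21 lost and 7 gained a call and 9 changed sign. The cause was not tested. Most of these values belong to results that had no call as reported. The 21 losses all fell on the 3 genes in Gpr161 KO and on Gli1 in Head Fuz KO. Gains came without a filter on low counts (log2 -0.84 for Gli1 in Head DKO, -1.50 for Hhip in Head Fuz KO, 0.84 for Hhip in Tail DKO, -0.78 for Gli1 in Tail Fuz KO), with DESeq2 (-0.85 for Gli1 in Head DKO, -1.49 for Hhip in Head Fuz KO) and without both Fuz KO 1 libraries (-0.82 for Gli1 in Head DKO). Gli1 in Head Fuz KO did not pass with each region fitted alone (-1.60) or with sex as a term (-1.42). Only the Gpr161 KO groups held both sexes, so the sex term rests on those libraries. They also differed from each other in the hypoxia and glycolysis genes. Signs turned for Ptch1 in DKO without both Fuz KO 1 and both DKO 1 libraries (-0.34 in the Head, -0.11 in the Tail), for Hhip in Head DKO (0.21) and Gli1 in Tail DKO (0.012) with sex as a term, and for Ptch1 between Head and Tail of DKO without haemoglobin and mitochondrial genes (0.00089). Leaving out each library in turn, with a lone library assumed to vary like the other groups, gave log2 ranges in the Head of 0.93 to 1.20 for Gli1, 1.55 to 1.81 for Ptch1 and 1.86 to 2.40 for Hhip in Gpr161 KO, of -1.74 to -1.47 for Gli1 in Fuz KO, and of -0.34 to 0.41 for Ptch1 and -0.98 to 0.040 for Hhip in DKO. In the Tail they were 1.42 to 1.67 for Gli1, 1.83 to 1.96 for Ptch1 and 1.69 to 2.32 for Hhip in Gpr161 KO, -0.099 to 0.34 for Ptch1 in DKO and -0.53 to 0.12 for Ptch1 in Fuz KO. Head minus Tail ran from -0.43 to 0.32 for Ptch1 in DKO, -0.45 to 0.19 for Ptch1 in Fuz KO, -0.60 to 0.043 for Hhip in Gpr161 KO, and, in WT, -0.19 to 0.083 for Gli1 and -0.079 to 0.17 for Ptch1. The effects as Tail minus Head ran from -0.26 to 0.49 for Ptch1 in DKO, -0.16 to 0.48 for Ptch1 in Fuz KO and -0.46 to 0.18 for Hhip in Gpr161 KO. With the replicate number as a block Gli1 in Head Fuz KO was at -1.60 (edgeR adjusted p = 0.00457) and no call of the 3 genes changed; pairing Head with Tail within a genotype, added after seeing the data, changed the call of Gli1 in Gpr161 KO given above and no other. Over the alternatives the number of all genes called ran from 4 to 432 in Head DKO against WT (7 in the comparison as reported), 1 to 2256 in Head Fuz KO (10), 42 to 2211 in Head Gpr161 KO (429), 5 to 481 in Tail DKO (9), 0 to 519 in Tail Fuz KO (2) and 11 to 802 in Tail Gpr161 KO (65). Of the 81 alternative values of the ratios, 2 changed sign, where the log2 ratio of Gli1 to Hhip in Fuz KO minus WT turned from -0.13 to 0.014 without Head Fuz KO replicate 1 and to 0.036 without Tail Fuz KO replicate 2, less than the spread between libraries, in a design that cannot pass the threshold. With 2 libraries a group, Hhip had 118 counts in its lowest library, of Head Fuz KO.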
